A study of Mus musculus with 21 samples.

Results

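Monocytes and macrophages are recognised by a set of transcripts for adhesion, chemokine sensing, lysosomal digestion and innate defence, and 10 such genes were followed here in Stag2 knockout and wild-type blood progenitors: F13a1, Ms4a6c, Fn1, Ly86, Ccr2, Mpeg1, Cx3cr1, Lgals3, Ctss and Vcam1. They were taken by gene name from the raw count table, and all 10 were among its 30733 genes. The series holds 21 RNA libraries of sorted mouse bone marrow cells, 11 labelled Stag2KO (KO) and 10 labelled Stag2WT (WT). The LSK gate, which holds stem and multipotent cells, gave 3 KO and 4 WT libraries. Granulocyte and monocyte progenitors (GMP) gave 4 KO and 3 WT libraries, and erythroid progenitors (CFU-E) gave 4 KO and 3 WT libraries. Marrow of every group was first depleted of lineage-positive cells, per the labels' protocols. Neither the age, the strain nor the driver of the deletion is stated in the labels. The labels also do not say whether replicates were separate animals, so each p-value reflects library-to-library spread that could be technical.

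Monocytes arise in the marrow from GMP and leave it through the chemokine receptor Ccr2, and macrophages of the marrow are in part their descendants. Several of the genes also mark cells other than mature monocytes. F13a1, Ms4a6c and Ccr2 are already transcribed in committed myeloid progenitors, F13a1 is made in megakaryocytes too, and Vcam1 is made by marrow stroma and endothelium. Stag2 is a subunit of cohesin, the ring that shapes chromatin loops.

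Promoters were available for 8 of the 10 genes, from RefSeq on GRCm38.p6, in windows of 250 bases before the start that table lists. Fn1 and Vcam1 were the others. By the same annotation the window of Ms4a6c runs into the gene and that of Ccr2 lies inside it, while those printed lie wholly before the gene. Windows of 3 genes are shown because these genes differ in the LSK values below: F13a1 and Lgals3 averaged less in KO libraries, and Ctss did not. Each is written 5′ to 3′ on the gene's strand, and capitals mark 3 motifs found on either strand. GAGGAA is a core bound by the myeloid factor PU.1. A motif shared by many factors of the ETS family reads GGAAGT. An interferon-response type element was taken as GAAA, any 2 bases and GAAA again.
F13a1, chr13:37050245-37050494, minus strand: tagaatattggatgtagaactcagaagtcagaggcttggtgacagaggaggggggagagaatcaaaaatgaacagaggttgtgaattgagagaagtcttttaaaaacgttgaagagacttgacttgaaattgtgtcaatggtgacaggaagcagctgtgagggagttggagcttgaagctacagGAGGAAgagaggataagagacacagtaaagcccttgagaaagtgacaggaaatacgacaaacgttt
Lgals3, chr14:47373610-47373859, plus strand: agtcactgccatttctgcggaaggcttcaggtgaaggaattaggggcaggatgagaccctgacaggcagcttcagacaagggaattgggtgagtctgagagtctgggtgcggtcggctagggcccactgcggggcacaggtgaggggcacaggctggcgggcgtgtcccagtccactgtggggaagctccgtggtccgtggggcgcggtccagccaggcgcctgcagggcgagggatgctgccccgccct
Ctss, chr3:95526536-95526785, plus strand: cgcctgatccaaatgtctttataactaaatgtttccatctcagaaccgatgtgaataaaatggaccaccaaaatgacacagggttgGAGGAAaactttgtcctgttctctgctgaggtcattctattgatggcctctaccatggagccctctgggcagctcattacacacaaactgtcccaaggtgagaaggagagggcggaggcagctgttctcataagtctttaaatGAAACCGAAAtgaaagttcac

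GAGGAA stood in 2 of the 8 genes, 66 bases before the start of F13a1 and 164 bases before that of Ctss, while 23.3% of 32851 mouse promoters of that length held it. GGAAGT stood in 1 gene, Ms4a6c, against 19.7% of promoters; a second listed window of F13a1, left out of these counts, also held it. The interferon-type pair of GAAA stood in Ctss, against 2.98% of promoters. The C/EBP-type letters TTGCNNAA, present in 9.56% of promoters, and an ETS-IRF composite of GGAA, any 2 bases and GAAA, present in 2.3%, were in none of the 8 windows. GAGGAA and GGAAGT share the letters GGAA and can overlap. These are matches of letters within short windows, not bound sites.

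LSK libraries held 22813333 to 32196233 counts, GMP libraries 1250683 to 4401993 and CFU-E libraries 3654667 to 5550165. GMP depth went with genotype, at 1250683 to 3471881 in KO and 3732769 to 4401993 in WT. Levels are read counts per library size, scaled by TMM (CPM), and full-transcript LSK libraries were not compared in level with the 3′-end libraries of GMP and CFU-E. Stag2 fell in KO LSK to 72.3 ± 6.61 CPM (SD, n = 3), against 166 ± 16.9 CPM in WT (n = 4), by edgeR's quasi-likelihood test with Benjamini-Hochberg adjustment (adjusted p = 0.0270). CFU-E libraries also differed, Stag2 having fallen to 41.3 to 75.8 CPM in 4 KO libraries, against 125 to 160 CPM in 3 WT libraries (edgeR adjusted p = 0.0143). In GMP it was 106 ± 30.4 CPM in KO (n = 4) and 147 ± 51.2 CPM in WT (n = 3), with an edgeR adjusted p of 0.360. The library labelled GMP KO 4 had 150 CPM of Stag2, inside the WT range of 98.3 to 200 CPM and above the 80.9 to 98.7 CPM of the other GMP KO libraries, and WT 3, at 98.3 CPM, lay inside the KO range. The deleted part is not given in the labels, and a 3′ tag outside a deletion need not follow it. In CFU-E, of the same 3′ protocol, Stag2 did separate KO from WT libraries, and in GMP it did not. Why GMP differed was not tested, and Stag2 does not bear out the GMP labels here. Summed levels of 18 erythroid genes were 8729 to 10501 CPM in CFU-E libraries and 255 to 361 CPM in GMP libraries. All 15 genes of the stem-cell list had reads in LSK, at a sum of 2530 to 3633 CPM, a level that cannot be set against the other kit. In LSK, the summed level of 22 late neutrophil genes was 1159, 1569 and 2351 CPM in KO and 871, 9385, 2007 and 5059 CPM in WT 1 to WT 4, so that WT 2 and WT 4 stood above every other LSK library.

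In LSK cells, 9 of the 10 genes had lower means in KO than in WT libraries, and none of the 10 differences passed the adjusted threshold. The median log2 fold change of the 10 was -1.23, against 0.00445 over all 17664 genes tested, of which 49.4% were below 0. A low median was not particular to these genes. It was -1.24 for late neutrophil genes and -1.88 for B cell genes in LSK. The stem-cell list was at -0.22, and the megakaryocyte list was above 0, at 0.59. At an adjusted p under 0.05 edgeR called 0 of 10, in a comparison that called 14 genes, 0.0793% of those tested. At an unadjusted p under 0.05, 6 of 10 were lower in KO (F13a1, Ms4a6c, Ly86, Ccr2, Lgals3 and Vcam1), against 5.29% of all genes. DESeq2's Wald test called 2 of the 10 lower, F13a1 (adjusted p = 0.00595) and Ms4a6c (adjusted p = 0.00245), and it called 342 genes in all. In bulk libraries, fewer cells that carry these RNAs, of whatever type, and less of these RNAs per cell cannot be told apart.

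**Figure D1:**
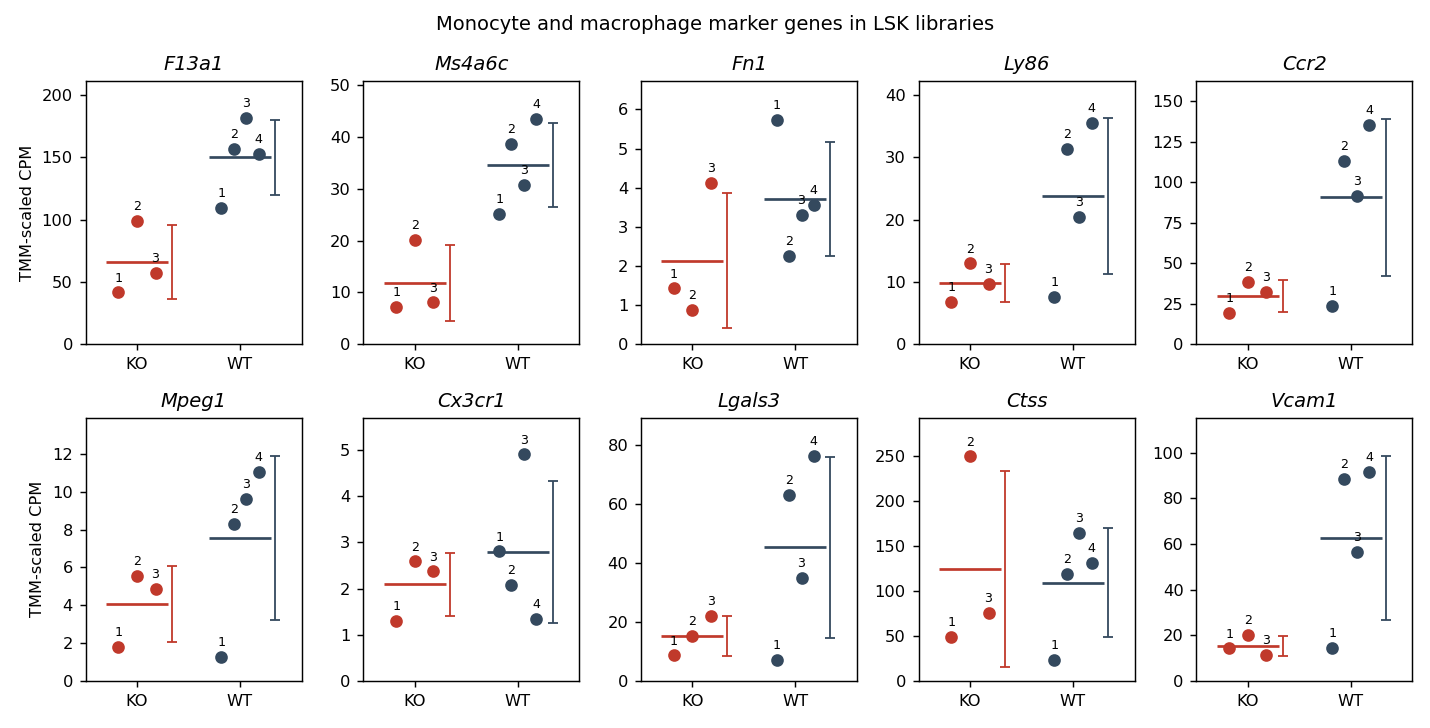
Levels of the 10 genes in LSK libraries, in TMM-scaled CPM on linear axes that start at 0, with KO left of WT. Numbered points are libraries, lines are means and bars are 1 SD (n = 3 KO, n = 4 WT); F13a1 and Ms4a6c are the genes whose groups do not overlap, and WT 1 is inside the KO range for Ly86, Ccr2 and Vcam1, above it for Fn1 and Cx3cr1, and under it for Mpeg1, Lgals3 and Ctss.

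Vcam1 encodes an adhesion receptor that holds cells through the integrin of Itga4 and Itgb1. Its LSK level was 14.3, 20.3 and 11.4 CPM in KO 1 to KO 3, against 14.4, 88.4, 56.6 and 91.5 CPM in WT 1 to WT 4. WT 1 was level with the KO libraries, and the other WT libraries stood well above them. The log2 fold change was -2.03 ± 0.556 (SE), the furthest from 0 of the 10, with an edgeR adjusted p of 0.316. Fn1 encodes fibronectin, a matrix glycoprotein. It was low throughout, at 1.42, 0.875 and 4.11 CPM in KO and 5.74, 2.25, 3.30 and 3.56 CPM in WT, so the groups overlapped (log2 fold change -0.80 ± 0.536 (SE), edgeR adjusted p = 0.835; -1.68 without KO 3 and -0.42 without KO 2).

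Ccr2, the receptor for Ccl2 that takes monocytes into the blood, was at 19.2, 38.4 and 32.1 CPM in KO LSK, against 23.4, 113, 91.3 and 135 CPM in WT. Again WT 1 fell within the KO range and the other 3 WT libraries lay above all KO libraries. Its log2 fold change was -1.60 ± 0.520 (SE; edgeR adjusted p = 0.445). Cx3cr1, the receptor for the chemokine fractalkine, had 1.31, 2.59 and 2.37 CPM in KO and 2.80, 2.08, 4.90 and 1.35 CPM in WT. Neither group stood apart, and the log2 fold change was -0.42 ± 0.455 (SE; edgeR adjusted p = 0.889), with -0.00366 without WT 3 and -0.17 without KO 1.

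F13a1, the catalytic chain of the clotting factor that cross-links fibrin, had 41.6, 99.0 and 57.1 CPM in KO LSK, against 109, 157, 181 and 153 CPM in WT. Every KO library lay below every WT library, with KO 2 close to WT 1. The log2 fold change was -1.19 ± 0.295 (SE; 95% interval -1.86 to -0.52), and its edgeR adjusted p was 0.268. Ms4a6c, a 4-pass membrane protein of a family with near-identical copies whose reads may be shared, gave the other pair of groups without overlap. It had 7.18, 20.2 and 8.09 CPM in KO and 25.2, 38.8, 30.8 and 43.5 CPM in WT. Its log2 fold change was -1.55 ± 0.380 (SE; edgeR adjusted p = 0.264). Over all genes tested, 4.63% had every KO library below every WT library, and 2 of the 10 did. Lgals3 encodes galectin-3, a sugar-binding protein that macrophages make in quantity. It was at 8.61, 15.3 and 22.1 CPM in KO and 7.17, 63.0, 34.8 and 76.1 CPM in WT, with WT 1 the lowest LSK library of all (log2 fold change -1.56 ± 0.678 (SE), edgeR adjusted p = 0.625).

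Ly86 encodes MD-1, the partner of the receptor Cd180. Its LSK level was 6.83, 12.97 and 9.72 CPM in KO and 7.60, 31.4, 20.5 and 35.5 CPM in WT (log2 fold change -1.27 ± 0.479 (SE), edgeR adjusted p = 0.532). WT 1 lay within the KO range. Mpeg1, a pore-forming protein of phagosomes, had 1.81, 5.55 and 4.84 CPM in KO and 1.27, 8.30, 9.61 and 11.05 CPM in WT, with WT 1 below every KO library. The log2 fold change was -0.89 ± 0.654 (SE; edgeR adjusted p = 0.854). Ctss, a lysosomal protease that trims the invariant chain Cd74, was the exception in sign. It had 48.5, 249 and 75.1 CPM in KO, against 23.4, 118.8, 164 and 131 CPM in WT. KO 2 was the highest of all 7 libraries, at 4.03 times the mean of KO 1 and KO 3, and WT 1 the lowest. The log2 fold change was 0.19 ± 0.675 (SE; edgeR adjusted p = 0.956), and it was -0.82 without KO 2 and -0.15 without WT 1.

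In LSK, WT 1 stood apart from the other WT libraries. It was the lowest WT library for 8 of the 10 genes, all except Fn1 and Cx3cr1, and KO 1 was the lowest KO library for 8 of 10. Without WT 1, every KO library lay below every remaining WT library for 7 of the 10 genes. WT 1 was picked out by its values for these same genes, so this count is no support. Its share over all genes was not computed. In the fit without WT 1, edgeR called Ccr2 (log2 fold change -1.93, adjusted p = 0.0253) and Vcam1 (-2.37, adjusted p = 0.0152). It called 123 of 17415 genes tested in all. WT 1 was the lowest WT library for both Ccr2 and Vcam1, so their calls are no support either. The descriptions of LSK libraries carry numbers in 3 series, whose meaning is not given: the first holds KO 1 and WT 1, and the second holds KO 2, KO 3 and WT 2. Within the first, KO 1 was below WT 1 for 7 of 10 genes with a median log2 ratio of -0.22. Within the second, KO 2 and KO 3 were both below WT 2 for 7 of 10 genes, with a median of -1.23. Each of these counts rests on 1 WT library, and shares over all genes were not computed. WT 2 also held the most late neutrophil RNA of the LSK libraries, at 9385 CPM. WT 3 and WT 4 share the third, which holds no KO library. Without KO 1 and WT 1, edgeR called none of the 10 genes and 10 genes in all, in a fit chosen after seeing the data.

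Most of the 10 genes varied together across LSK libraries of both genotypes. Of their 45 pairs, 40 had a positive Pearson correlation of log2 CPM over the 7 libraries, with a median r of 0.63. Ccr2 was closest to the mean of the other 9 (r = 0.96), and Fn1 (r = 0.06) and Cx3cr1 (r = 0.18) were furthest from it. The genes outside the set most like its mean, among 10108 genes of at least 5 CPM, were Cd68 (r = 0.98), Gapt (0.98), Sema4a (0.98), L1cam (0.98) and Gsr (0.97). Cd68 is a lysosomal membrane protein of macrophages, and Gsr is glutathione reductase. The points share library depth and makeup and span both genotypes, so these values are descriptions. Pairs of other genes were not examined.

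In GMP the 10 genes split, and Fn1 fell. Of the 10, 1 passed the adjusted threshold as lower in KO, where 1% of 9969 genes did, and none passed as higher, where 0.451% did. The median log2 fold change of the 10 was -0.48, against 0.0153 over all genes; 8 of 10 were below 0, against 48.8%. Without WT 1 the median was -0.19, and without the library labelled KO 4 it was -0.50. At an unadjusted p under 0.05, 5 of 10 were lower (Fn1, Ms4a6c, Lgals3, Cx3cr1 and Ccr2), against 8.49% of all genes. Every KO library lay below every WT library for 3 of 10 (Fn1, Ms4a6c and Cx3cr1), against 8.46%.

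**Figure D2:**
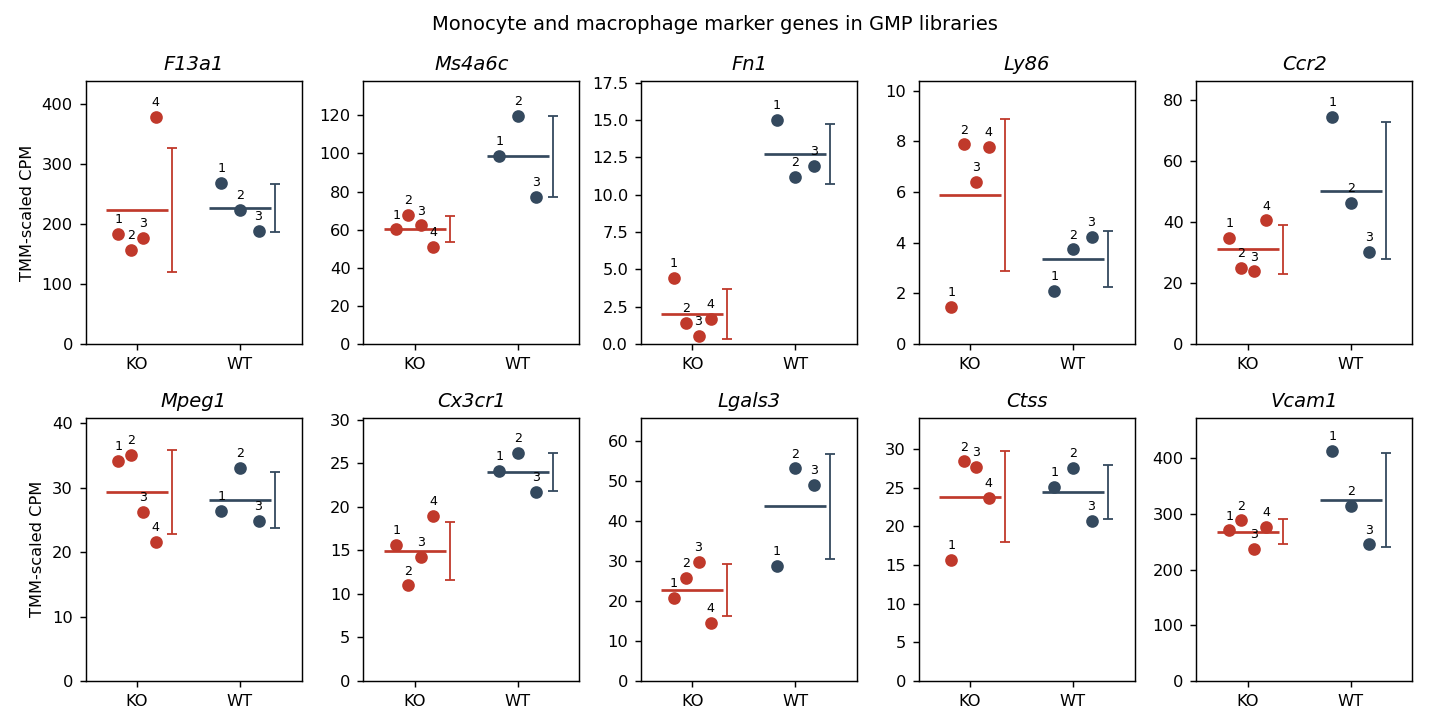
Levels of the 10 genes in GMP libraries, in TMM-scaled CPM on linear axes that start at 0, with KO left of WT. Numbered points are libraries, lines are means and bars are 1 SD (n = 4 KO, n = 3 WT); Fn1 is at 0.582 to 4.46 CPM in KO and 11.2 to 14.99 CPM in WT, while F13a1, Mpeg1 and Ctss overlap fully.

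Fn1 had 6, 5, 2 and 5 reads in GMP KO 1 to KO 4, against 64, 39 and 45 reads in WT 1 to WT 3. Scaled for depth this was 4.46, 1.41, 0.582 and 1.69 CPM in KO, against 14.99, 11.2 and 11.9 CPM in WT. The highest KO library was KO 1, the shallowest, and it was still well under the lowest WT library. The log2 fold change was -2.89 ± 0.466 (SE; 95% interval -3.88 to -1.90) with an edgeR adjusted p of 0.00452. It stayed between -3.35 and -2.53 when any 1 library was left out (edgeR adjusted p 0.000987 to 0.0408), and was called with every library thinned to the shallowest. Without the library labelled KO 4 it was -2.91. Vcam1, the highest of the 10 in GMP on the CPM scale, had 271, 289, 237 and 277 CPM in KO, against 414, 315 and 245 CPM in WT. WT 3 fell among the KO libraries (log2 fold change -0.28 ± 0.222 (SE), edgeR adjusted p = 0.516; -0.0686 without WT 1).

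The chemokine receptors had like fold changes in GMP. Ccr2 was at 34.9, 25.0, 23.9 and 40.6 CPM in KO, against 74.5, 46.3 and 30.2 CPM in WT, and WT 3 fell within the KO range (log2 fold change -0.71 ± 0.299 (SE), edgeR adjusted p = 0.233; -0.31 without WT 1). Cx3cr1 was at 15.6, 10.97, 14.3 and 18.9 CPM in KO, against 24.1, 26.1 and 21.7 CPM in WT. Its groups did not overlap, and the log2 fold change was -0.69 ± 0.261 (SE; edgeR adjusted p = 0.196).

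F13a1 gave no such difference in GMP. It had 184, 157, 177 and 379 CPM in KO, against 269, 224 and 189 CPM in WT. The library labelled KO 4 was the highest of all 7 and the other KO libraries were the lowest, which left a log2 fold change of -0.02 ± 0.288 (SE; edgeR adjusted p = 0.978); without that library it was -0.39. Ms4a6c had 60.2, 67.8, 62.3 and 51.1 CPM in KO, against 98.8, 120 and 77.1 CPM in WT. All KO libraries were below all WT libraries (log2 fold change -0.71 ± 0.221 (SE), edgeR adjusted p = 0.129). Lgals3 had 20.8, 25.9, 29.7 and 14.5 CPM in KO, against 28.8, 53.2 and 49.0 CPM in WT, an overlap of KO 3 with WT 1. Its log2 fold change was -0.93 ± 0.285 (SE; edgeR adjusted p = 0.122), and with no filter on low counts it was called (adjusted p = 0.0218).

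The genes of phagosome and lysosome, Mpeg1 and Ctss, had log2 fold changes near 0 in GMP. Mpeg1 averaged 29.3 ± 6.49 CPM in KO (n = 4) and 28.1 ± 4.32 CPM in WT (n = 3), and its log2 fold change was 0.05 (95% interval -0.48 to 0.58). Ctss averaged 23.8 ± 5.86 CPM in KO and 24.4 ± 3.50 CPM in WT, with a log2 fold change of -0.01 (95% interval -0.56 to 0.54). The direction of both turned under several settings. Ly86 had 2, 28, 22 and 23 reads in KO 1 to KO 4, against 9, 13 and 16 reads in WT. KO 1 was the lowest library and the other KO libraries the highest (log2 fold change 0.90 ± 0.469 (SE), edgeR adjusted p = 0.318).

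In GMP, 29 of the 45 pairs had a positive correlation over the 7 libraries, with a median r of 0.16. Ms4a6c was closest to the mean of the others (r = 0.86), and Ly86 (r = -0.40) and Mpeg1 (r = -0.16) ran against it. Among 8170 genes of at least 5 CPM, Dmxl2 (r = 0.99), Slc16a6 (0.99), Sh3bp5 (0.98), Tecpr2 (0.98) and Kif3b (0.98) were most like the mean of the 10. Whether these correlations differ between LSK and GMP was not tested.

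**Figure D3:**
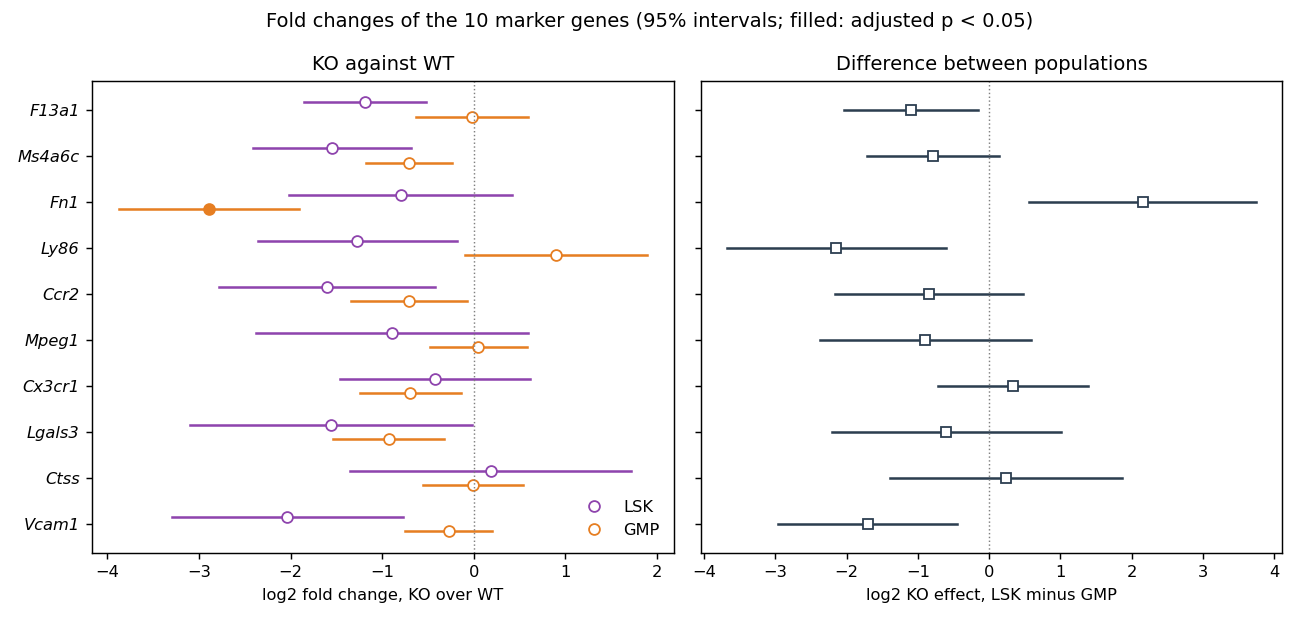
Left, log2 fold change of KO over WT for each gene in LSK and in GMP with 95% intervals; right, the KO effect in LSK minus that in GMP. Filled points passed an adjusted p of 0.05, which Fn1 in GMP alone did, and intervals that cross the dotted line at 0 include no difference.

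Both populations were set against each other by an interaction, which asks whether the KO effect differs between LSK and GMP for the same gene. Population, library kit and depth change together here, so their parts in a difference cannot be told apart. Stag2 also did not bear out the GMP labels. edgeR called 0 of 10 genes and 0% of 16288 genes in all; at an unadjusted p under 0.05 it had 790 lower and 942 higher genes, and DESeq2 called 62. The difference was -2.14 ± 0.726 (SE) for Ly86 (edgeR adjusted p = 0.394) and -1.70 ± 0.595 (SE) for Vcam1 (edgeR adjusted p = 0.400). It was -1.10 ± 0.445 (SE) for F13a1 (edgeR adjusted p = 0.440). For Fn1 it had the opposite sign, 2.15 ± 0.754 (SE; edgeR adjusted p = 0.400), its LSK fold change being the smaller in size. These 4 were the genes of the set with an unadjusted p under 0.05, 3 lower against 4.85% of all genes and 1 higher against 5.78%. The other 6 differences lay between -0.90 and 0.33. Of the 10 genes, 7 had a log2 fold change below 0 in both populations, among them F13a1, at only -0.02 in GMP. The share of all genes below 0 in both was not computed, so the count cannot be read against it.

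CFU-E served as a population outside the monocyte line, and the 10 genes were near the limit of detection there. No gene had more than 28 reads in a CFU-E library, that of Cx3cr1 in WT 1, and Ly86 had 1 read over all 7 libraries. Only Cx3cr1 passed the filter on low counts, with 12, 11, 9 and 5 reads in KO and 28, 16 and 9 reads in WT. Its log2 fold change was -0.72 ± 0.497 (SE; edgeR adjusted p = 0.703), in a comparison that called 1.06% of 10170 genes. The other 9 genes were not tested, and with no filter on low counts none of the 10 was called. Mpeg1 had 3, 3, 3 and 5 reads in KO and 0, 2 and 0 reads in WT, and Fn1 had 1, 4, 0 and 0 reads in KO and 4, 5 and 3 reads in WT. Scaled to CPM, neither gene's groups overlapped, though for Fn1 the reads themselves did. Of the 10170 genes tested, 5.66% had every KO library below every WT library and 6.1% had every KO library above. Mpeg1 and Fn1 had too few reads to be among those tested. Ctss had 6, 17, 10 and 3 reads in KO and 4, 0 and 3 reads in WT, with KO 4 inside the WT range.

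In WT libraries of the shared 3′ protocol, 9 of 9 genes tested were higher in GMP than in CFU-E at an adjusted p under 0.05, against 25% of 10329 genes. A gene entered this test by reads in either population, and within CFU-E only Cx3cr1 had passed the filter. The others entered through their GMP reads, so their direction was set beforehand. Neither the count nor the p-values of those genes are support, and for them only levels and fold changes are given. Vcam1 was at 325 ± 84.5 CPM in GMP and 1.20 ± 0.334 CPM in CFU-E (SD, n = 3 each), a log2 fold change of 8.21 ± 0.421 (SE). F13a1 was at 227 ± 40.2 CPM in GMP and 1.62 ± 1.02 CPM in CFU-E, a log2 fold change of 7.82 ± 0.439 (SE). Cx3cr1 differed least, at 24.0 ± 2.22 CPM in GMP and 4.05 ± 2.23 CPM in CFU-E (log2 fold change 2.70 ± 0.380 (SE), edgeR adjusted p = 2.30e-06). Ly86 was not tested, with 9, 13 and 16 reads in GMP and none in CFU-E.

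**Figure D4:**
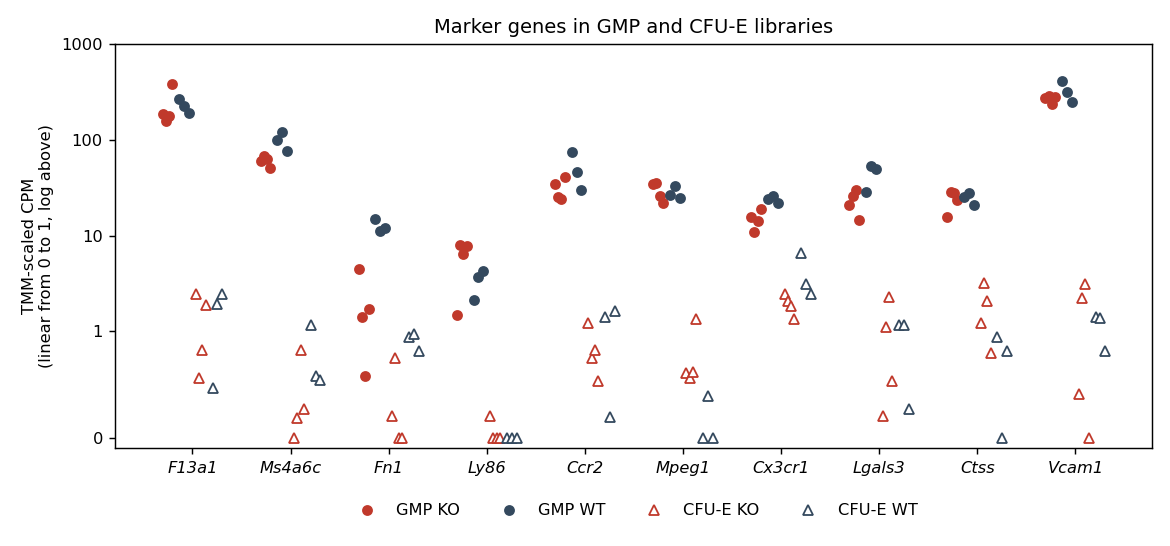
Levels of the 10 genes in GMP (filled) and CFU-E libraries (open), in TMM-scaled CPM on an axis that is linear from 0 to 1 and logarithmic above. Each point is 1 library, KO left of WT within a population; the CFU-E points lie at 6.60 CPM or below, and the GMP points of Vcam1 lie between 237 and 414 CPM.

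Genes that act with the 10 gave few calls. The list of partners and relatives holds ligands, binding partners, enzymes' substrates and family members, and 24 of its 28 genes were tested in LSK and 18 in GMP. In LSK none rose or fell by edgeR's adjusted p, and the median log2 fold change was -0.20. At an unadjusted p under 0.05, 5 were lower, against 5.29% of all genes. Ms4a6b had the smallest p, at 13.7 CPM in KO and 30.3 CPM in WT (log2 fold change -1.15, edgeR adjusted p = 0.205). In GMP Cd74, the invariant chain that Ctss cuts, fell to 1.82 ± 1.59 CPM in KO (n = 4), against 10.1 ± 2.75 CPM in WT (n = 3; log2 fold change -2.23 ± 0.504 (SE), edgeR adjusted p = 0.0393). Itga4, the integrin chain that binds both Vcam1 and Fn1, was at 76.9 CPM in GMP KO and 48.8 CPM in WT (edgeR adjusted p = 0.273). The median of the list in GMP was 0.07. In CFU-E, Lgals1, which encodes galectin-1, fell to 9.16 ± 2.396 CPM in KO (n = 4), against 35.3 ± 6.33 CPM in WT (n = 3; log2 fold change -2.02 ± 0.255 (SE), edgeR adjusted p = 0.00108).

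Of 40 other monocyte genes, 37 were tested in LSK, where none rose or fell by edgeR's adjusted p. Their median log2 fold change was -0.60. At an unadjusted p under 0.05, 7 were lower, against 5.29% of all genes. Klf4, a transcription factor of monocyte development, had 2.05 to 2.43 CPM in KO and 3.68 to 8.96 CPM in WT (log2 fold change -1.55, edgeR adjusted p = 0.191). Csf1r, the receptor for the macrophage growth factor, was at 31.9 CPM in KO and 32.4 CPM in WT. In GMP 27 were tested, none rose and 2 fell, and the median was -0.22. Cd52, a small surface glycoprotein of leukocytes, fell to 355 ± 62.8 CPM in KO (n = 4), against 1113 ± 144 CPM in WT (n = 3; log2 fold change -1.65 ± 0.220 (SE), edgeR adjusted p = 0.00117). Ly6c2, the marker of classical monocytes, fell to 626 ± 22.1 CPM in KO, against 1265 ± 61.0 CPM in WT (log2 fold change -1.02 ± 0.198 (SE), edgeR adjusted p = 0.0178), and its reads may be shared with the near-identical Ly6c1. Lyz2 (lysozyme) and Klf4 were without overlap in GMP but not called (log2 fold changes -1.10 and -1.05, edgeR adjusted p = 0.0756 and 0.0631).

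Of 25 tissue macrophage genes in the table, 22 were tested in LSK, and none passed edgeR's adjusted threshold. Their median log2 fold change was -0.91. At an unadjusted p under 0.05, 11 were lower, against 5.29% of all genes. The summed level of the list was 620 to 653 CPM in KO and 727 to 800 CPM in WT, with WT 1 at 727 CPM. Cd81, Trf and Apoe, which are made in many cell types, made up most of it. Defining macrophage genes were scarce: C1qb, a chain of complement C1q, had 0.0380 to 0.237 CPM in KO libraries and 0.783 to 6.30 CPM in WT (log2 fold change -4.04, edgeR adjusted p = 0.271). Emr1, which encodes the macrophage antigen F4/80, had 0.0297 to 0.418 CPM in KO libraries and 1.53 to 3.60 CPM in WT (log2 fold change -3.12, edgeR adjusted p = 0.198). In GMP 7 were tested and 1 rose, Gpnmb, a lysosomal glycoprotein, at 6.52 ± 3.37 CPM in KO (n = 4) and 1.46 ± 0.270 CPM in WT (n = 3; log2 fold change 2.18 ± 0.504 (SE), edgeR adjusted p = 0.0438). The median of the 7 was -0.50, and the summed level of the list was 164 to 250.5 CPM in KO and 254 to 320 CPM in WT, lower in every KO library. Timd4 and Marco had no read in GMP.

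**Figure D5:**
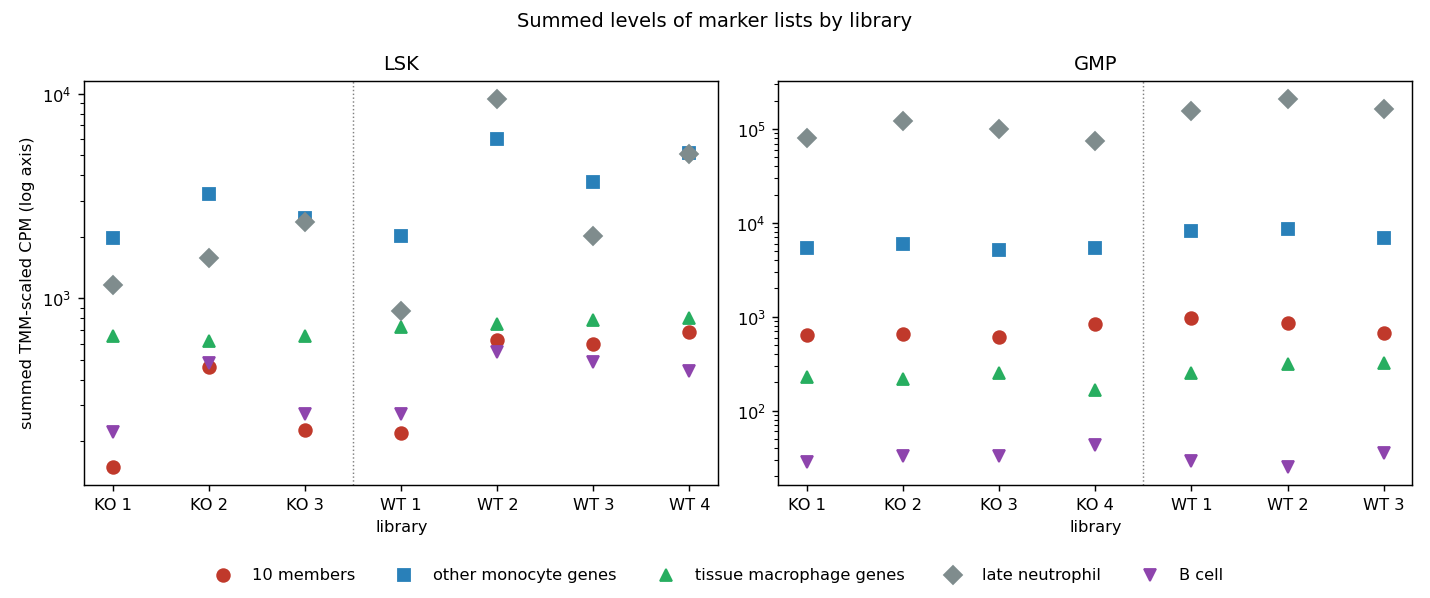
Summed level of 5 gene lists in each LSK library (left) and each GMP library (right), in TMM-scaled CPM on logarithmic axes, KO left of WT. In LSK the 10 genes are lowest in KO 1, at 151 CPM, and highest in WT 4, at 681 CPM; in GMP the late neutrophil list is lower in all 4 KO libraries.

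Other cell types moved beside these values. In LSK the 10 genes summed to 151, 464 and 227 CPM in KO 1 to KO 3, against 220, 623, 598 and 681 CPM in WT 1 to WT 4. The 17 B cell genes summed to 223, 483 and 272 CPM in KO and 271, 547, 491 and 442 CPM in WT, with KO 1, KO 3 and WT 1 the lowest in both lists. No gene of the B cell list was without reads in LSK. Of 17 B cell genes tested in LSK, 11 were lower at an unadjusted p under 0.05, against 5.29% of all genes. Immunoglobulin transcripts summed to 12444 to 104682 CPM in KO and 4865 to 78460 CPM in WT. Without WT 2 and WT 4, which held most late neutrophil RNA, the median log2 fold change of the 10 genes in LSK was -0.91. Ms4a6c was then at -1.23, Vcam1 at -1.21, F13a1 at -1.13, Ccr2 at -0.94, Ly86 at -0.51, Lgals3 at -0.46 and Mpeg1 at -0.43. Megakaryocyte genes, 11 in all, summed to 690 to 799 CPM in KO LSK and 455 to 583 CPM in WT LSK. In GMP they summed to 105 to 133 CPM in KO and 74.0 to 101 CPM in WT, higher in every KO library. The 17 stromal and endothelial genes summed to 114 to 134 CPM in KO LSK and 56.8 to 93.5 CPM in WT LSK; most of this was Pdgfrb, at 90.7 CPM in KO and 27.3 CPM in WT. In GMP the stromal sums overlapped, at 9.02 to 12.9 CPM in KO and 10.9 to 14.3 CPM in WT. In GMP the late neutrophil list summed to 74771 to 122238 CPM in KO and 156372 to 207333 CPM in WT, and the 10 genes to 606 to 836 CPM in KO and 674 to 977 CPM in WT. Of the late neutrophil list, 3 of 18 tested genes fell in GMP and none rose. The part of these cell types in the results on the 10 genes was not tested.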

How the data were processed

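The authors deposited a raw count table with a whole number for each of 30733 genes in each of 21 libraries, without normalization. Per the labels' protocols, RNA was extracted with TRIzol, the LSK kit covered full transcripts (SMARTer), and that of GMP and CFU-E only 3′ ends (SMART-Seq2). The build (mm9) and the tools (STAR 2.4, HTSeq 0.6.1, DESeq2) come from the submitters' processing notes. No annotation or strand setting is named there, so family copies and overlapping or antisense genes are uncertain.

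Each comparison was fitted over all genes with edgeR 4.0.16 in R 4.3.3: genes kept by filterByExpr (minimum count 10, minimum total 15), TMM scaling, and the quasi-likelihood test at a Benjamini-Hochberg adjusted p under 0.05. A flow cell term was used wherever CFU-E took part: all GMP, CFU-E KO 1, WT 1 and WT 2 share one flow cell, and the others are on another. Standard errors are the fold change over the square root of F. DESeq2 1.42.0 was an alternative, and the tests were checked on simulated counts. There edgeR recovered 26.9% of 2-fold and 65.2% of 4-fold changes in LSK, and 29.9% and 89.4% in GMP. For the interaction it recovered 11.9% and 39.4%, so a gene that was not called may still differ. No 2 libraries of a group agreed within sampling noise (chi-square per degree of freedom at least 4.03).

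Members, lists and alternatives were chosen with earlier results of these data known. Always named were the members and Stag2; from 3 related lists (partners, other monocyte genes, tissue macrophage genes), genes past the threshold and up to 6 more by smallest p were eligible, and Csf1r was chosen after its values were seen. One eligible gene is not reported here. From lists of other cell types, summed CPM is given. Likeness took the 5 highest correlations with the mean of the members' standardized log2 CPM. Promoters come from RefSeq (GRCm38.p6), a build other than that of the counts, and were matched by gene symbol.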

Additional observations from a re-analysis of the deposited data

Results flagged for a closer look

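Among 30 groups of 4 libraries checked (the 10 genes in LSK WT, GMP KO and CFU-E KO), 3 had a library far from its group, and chance gives about 1 in 20. F13a1 was at 379 CPM in the library labelled GMP KO 4, and the other 3 GMP KO libraries were at 157 to 184 CPM. Stag2 in that library was at 150 CPM, above WT 2 (143 CPM) and WT 3 (98.3 CPM). Ly86 was at 0.204 CPM in CFU-E KO 1, which is 1 read, and the other CFU-E KO libraries had none. Mpeg1 was at 1.33 CPM in CFU-E KO 4, which is 5 reads, and the other CFU-E KO libraries were at 0.561 to 0.619 CPM, 3 reads each.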

How the results depend on the processing

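In LSK, 14 genes and none of the 10 members were called. DESeq2 called 342 genes and 2 members, no filter on low counts 38, the replicate block 0, the description number as a term 6, and the fit without WT 2 and WT 4 1. Leaving out 1 library gave 0 to 123 genes and 0 to 2 members, both highest without WT 1; the cause was not tested. Leaving out 1 library moved Ctss in LSK between -0.82 and 0.57, and the number term gave 0.70. In GMP, 145 genes and 1 member were called. DESeq2 called 300 genes, no filter 601 (with 2 members), the replicate block 325, thinned libraries 64 and the joint fit with CFU-E 350. Leaving out 1 library gave 38 to 211. Fn1 was called in every GMP fit run. In GMP, Ctss turned to 0.00578 under the stricter filter and 0.21 without KO 1 and KO 4, and Mpeg1 to -0.30 when thinned and -0.0308 in the joint fit. Leaving out 1 library moved Ctss between -0.12 and 0.13, Mpeg1 between -0.0529 and 0.19 and F13a1 between -0.39 and 0.12. In CFU-E, 108 genes were called, against 182 by DESeq2, 333 with no filter, 31 with the replicate block, 234 with no flow cell term and 22 to 143 without 1 library. For the interaction, DESeq2 called 62 genes and no filter 12, and leaving out 1 library gave 0 to 8; Lgals3 turned to 0.0128 with the replicate block, and Ctss ran from -0.85 to 0.54. Same-numbered libraries did not pair (correlations 0.00 to 0.11 in LSK, -0.16 to 0.24 in GMP and -0.18 to 0.25 in CFU-E). Low reads limit Fn1 and Ly86 in GMP and all 10 genes in CFU-E.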
